A study of Mus musculus with 8 samples.

Results

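Mature B cells were examined among the cells released from the femurs and tibias of lean and high-fat-fed mice. They are here those with Ighd RNA, no RNA of chosen early genes and little or none of cycle genes. A cell was chosen by its own counts of unique molecular identifiers (UMIs, each standing for 1 captured RNA molecule): at least 2 UMIs of Cd79a and 1 of Cd79b, the signaling chains of the B cell receptor, at least 2 UMIs of Ighd, the constant region of IgD, none of Rag1, Vpreb1, Igll1 and Dntt, genes of early B cell development, fewer than 2 of the cycle genes Mki67 and Top2a together, and under 2% of UMIs from the neutrophil genes S100a8 and S100a9. Only barcodes with more than 500 and fewer than 8000 genes and under 20% mitochondrial UMIs were kept. Of 12253 kept cells, 497 met these conditions, 257 on normal diet (ND) and 240 on high-fat diet (HFD). Since Ighd, Cd79a, Cd79b and the other genes of the rule chose the cells, their levels are given as a description only.

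The cells came from male C57BL/6J mice of 16 weeks of age. HFD mice had received a diet with 60% of calories from fat for 12 weeks from an age of 4 weeks, and ND mice normal chow. The labels list 4 mice per diet and name the tissue as periosteum, the cell layer on the outer face of bone. As the bones were digested in collagenase and dispase, B cells of the periosteum and B cells of marrow or blood cannot be told apart. The libraries were made by droplet capture, and 1 matrix was deposited per diet in which no barcode is tied to a mouse. Each diet was thus 1 library, no difference between diets could be tested, and spread between mice is unknown. All intervals are 95% exact ones, which hold the error of counting alone.

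B cells arise in bone marrow, where the heavy and then the light chain of the antigen receptor are assembled. An immature B cell carries IgM alone. As it matures in the spleen and recirculates, it splices the same heavy chain transcript to both the IgM and the IgD constant region, gains the low-affinity IgE receptor CD23 (Fcer2a) and large amounts of MHC class II, and loses markers of the transitional stage such as CD93 and CD24. Mature B cells home back to marrow through blood, where they sit near sinusoids.

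The libraries held 6314 barcodes with 48558889 UMIs on ND and 6636 barcodes with 49940976 UMIs on HFD, of which 6029 and 6224 barcodes were kept. A chosen cell had a median of 3997 UMIs and 1385 genes on ND (lowest 1850, highest 19420 UMIs) and of 3876 UMIs and 1361 genes on HFD (lowest 1368, highest 10946 UMIs). Depth was thus close between the diets, and so was the median share of mitochondrial UMIs, at 2.14% and 1.98%. The libraries shared 15 barcodes, 1 of which marked a chosen cell, on HFD. Among the 285 ND and 412 HFD barcodes that were not kept, 0 met the gene conditions.

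Mature Ighd-positive B cells made up 4.26% of kept cells on ND (interval 3.77 to 4.80%) and 3.86% on HFD (3.39 to 4.37%). The intervals overlapped, and with at least 3 Ighd UMIs the order turned, to 2.26% on ND and 2.47% on HFD. Among all cells of the B lineage gate, 1441 on ND and 1389 on HFD, they made up 17.8% (15.9 to 19.9%) and 17.3% (15.3 to 19.4%). The other classes of the gate were 854 and 730 Ighd-low cells (same rule, but fewer than 2 Ighd UMIs), 197 and 281 resting precursors with a UMI of an early gene, and 133 and 138 cycling precursors. Ighd-low cells took 59.3% of the gate on ND and 52.6% on HFD, and resting precursors 13.7% and 20.2%. The share of mature cells was thus close between the diets, while those of Ighd-low cells and resting precursors differed by more than counting error.

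The label was checked against the markers. Levels are given as UMIs of the gene per 1000000 UMIs of the class (UPM). Fcer2a stood at 332 UPM on ND (300 to 368) and 276 on HFD (244 to 310), against 124 and 87.6 in Ighd-low cells, 13.9 and 33.8 in resting precursors, and 0 UMIs in T cells of either library, which allows at most 3 UMIs. H2-Aa, the alpha chain of the class II molecule I-A, stood at 4933 UPM on ND and 5132 on HFD, against 1835 and 1759 in Ighd-low cells. Cd74, the invariant chain that escorts class II molecules, stood at 23761 and 24157 UPM against 15944 and 15544. These 3 markers were higher in mature cells than in each other B lineage class of both libraries.

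Ms4a1, which encodes CD20, went the other way against the nearest class. Its level was 982 UPM on ND and 977 on HFD in mature cells, 1634 and 1617 in Ighd-low cells, and 311 and 361 in resting precursors. It was detected in 85.2% and 90% of mature cells, and with each cell thinned to 1000 UMIs in 49.0% and 56.3% of them against 69.8% and 67.0% of Ighd-low cells. CD20 RNA was thus present in most mature cells, at a lower level than in Ighd-low cells. Ighd itself, which chose the cells, stood at 724 and 834 UPM, against 1.70 and 3.28 in T cells. As T cells were gated to hold no Cd79a or Cd79b UMI, droplets with B cell RNA were removed from them, and their B cell gene levels are low in part by selection.

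**Figure D1:**
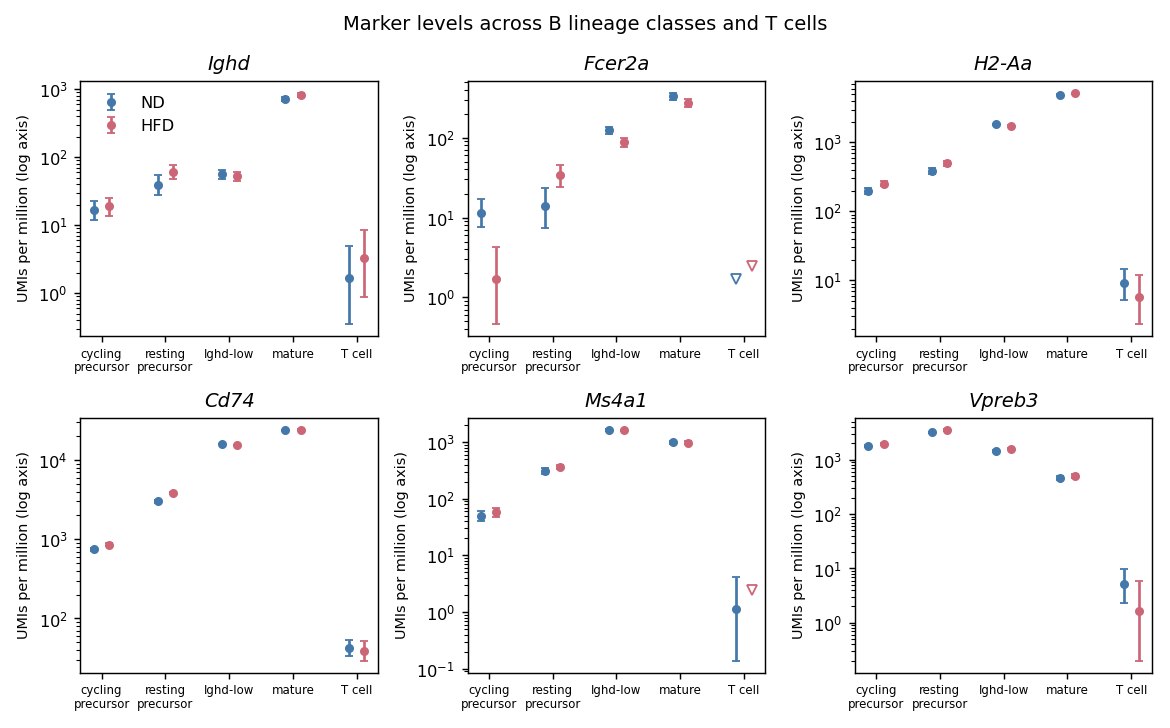
Levels (UPM, log axis) of Ighd, which chose the cells, of 4 further markers and of Vpreb3 in the 4 B lineage classes and in T cells, ND in blue and HFD in red. Points are summed levels of 1 library, bars are exact 95% Poisson intervals, and open triangles mark 0 UMIs at the limit of 3 counts. Fcer2a, H2-Aa and Cd74 are highest in mature cells, while Ms4a1 is highest in Ighd-low cells (1634 and 1617).

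As detection of a gene depends on depth, the shares of cells with a UMI were repeated with each cell thinned to 1000 UMIs. Fcer2a was then found in 25.7% of ND and 21.7% of HFD mature cells, against 9.20% and 8.39% of Ighd-low cells and 0% of T cells. Without thinning the shares were 56.4% and 52.9% in mature cells (median depth 3997 and 3876 UMIs) and 20.8% and 16.3% in Ighd-low cells (3756 and 3781). The order of the classes held for shares at equal depth. The classes themselves were still chosen at full depth, so how the Ighd condition depends on depth is not addressed by these shares. For H2-Aa the thinned shares were 90.7% and 88.3% in mature and 53.7% and 49.0% in Ighd-low cells, and for Vpreb3, which encodes a partner of the immature receptor, 32.7% and 33.3% against 63.0% and 70.3%.

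Genes of other B cell types were counted. As the rule asks for Ighd RNA, it selects against cells that have switched isotype, and counts of switched isotypes are a description only. Of the switched isotypes, Ighg1, Ighg2b, Ighg2c, Ighg3 and Ighe had 0 UMIs in all 497 cells, while Igha had 1987 UMIs in 19 ND cells, 98.7% of them in 1 cell, and 26 UMIs in 20 HFD cells. Cd5, a marker of B-1 cells, had 5 UMIs on ND and 1 on HFD, and Spn, which encodes CD43, 6 and 3. Other genes of the B-1 list were found more often, Bhlhe41 in 17.9% and 12.1% of cells and Zbtb20 in 22.2% and 20.8%. Tbx21, the transcription factor of age-associated B cells, had 7 and 4 UMIs, and Itgax, which encodes CD11c, 0 and 1, while Fcer1g of that list had 144 and 46, with 41.0% of the ND UMIs in 1 cell, and Pdcd1lg2 25 and 16. Cr2, the complement receptor that is highest on marginal zone cells and also marks follicular cells, was found in 17.1% of ND and 15.0% of HFD cells, while Cd1d1, another marginal zone gene, had log2 ratios over Ighd-low cells of -1.09 and -1.37. Cd5, Spn, Tbx21 and Itgax were thus near 0, and other genes of the same lists were not.

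A few cells held RNA of another cell type. On ND, 1 cell had 2074 UMIs of Igha and Jchain, genes of IgA plasma cells,, 1 had 479 UMIs of Ccl21a, a chemokine of lymphatic vessels and lymphoid stroma, and 3 had up to 325 UMIs of Lyz2, a gene of macrophages and other myeloid cells. C1qa, C1qb and C1qc, genes of macrophages, had 8, 0 and 1 UMIs on ND. On HFD, 3 cells had up to 319 UMIs of collagen genes and Sparc. Taking 10 UMIs of such genes as the limit, 5 ND and 3 HFD cells were mixed, and results that rest on them are given with and without them. The T cell genes Cd3e and Cd8b1 were at 0 in both libraries, and all 9 T cell genes summed to 16 and 8 UMIs. The 6 genes of NK cells summed to 45.2 and 126 UPM. Of these Gzma, a granzyme of NK and T cells, had 35 and 83 UMIs, 94.3% and 98.8% of them in 1 cell of each library, and Nkg7 had 12 and 27, 58.3% and 85.2% of them in 1 cell. NK cell genes were not part of the limit, so that cells with Gzma RNA remain where mixed cells are left out.

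RNA of the abundant neutrophils was present throughout. S100a8 was found in 80.2% of ND and 90.4% of HFD mature cells and in 76.2% and 89.6% of T cells. The 10 neutrophil genes summed to 1437 UPM on ND and 2479 on HFD, with S100a9 the most abundant, and Ly6g had 1 UMI in each library. The rule itself limits S100a8 and S100a9, and the part of neutrophil RNA in the differences below was not tested.

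The first comparison asked how mature cells differ from Ighd-low B cells, the class next to them by the rule. It was made within each library, and a gene was called when it passed 2-fold the same way in both. Each of the 6411 genes compared had 50 UMIs or more over the 2 classes in ND and in HFD. Of them 55 were called higher in mature cells (0.858%) and 160 lower (2.5%). The median log2 ratio of all genes was -0.16 on ND and -0.11 on HFD, so that the median gene was lower in mature cells. With that median set to 0, 72 genes were higher and 118 lower, and the share of calls that were higher went from 25.6% to 37.9%. The classes were cut from the same cells by Ighd, and these values are a description.

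Genes of antigen presentation by MHC class II were higher in mature cells together. Class II molecules carry peptides of engulfed antigen to helper T cells. Of 14 genes of the list compared, 6 were past 2-fold higher in both libraries and 0 lower, against 0.858% and 2.5% of all genes. The medians were 0.88 on ND and 1.05 on HFD. For H2-Eb1, the beta chain of I-E, the level was 2853 UPM on ND and 3060 on HFD against 1130 and 1101, log2 ratios of 1.34 (1.27 to 1.40) and 1.48 (1.40 to 1.54). For H2-Ab1, the beta chain of I-A, the ratios were 1.21 and 1.36, and for H2-Aa 1.43 (1.38 to 1.48) and 1.54 (1.49 to 1.60).

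Genes that load and edit the peptide differed in the same direction. H2-Ob, a chain of the inhibitor H2-O, had log2 ratios of 1.18 and 1.37, and H2-DMb1, a chain of the peptide exchanger H2-M, of 1.24 and 1.10. H2-DMa (0.67 and 0.72), H2-DMb2 (0.80 and 0.99), H2-Oa (0.90 and 0.54) and Cd74 (0.58 and 0.64) were higher by less than 2-fold in at least 1 library. Ciita, the coactivator that switches class II genes on, stood at 53.2 and 58.7 UPM against 29.2 and 22.3, with ratios of 0.87 (0.38 to 1.34) and 1.40 (0.87 to 1.92). Rfx5, Rfxap and Rfxank, subunits of the factor that recruits it and present in most cell types, were below 0 in both libraries, between -0.61 and -0.30.

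The promoters of these genes are shown because the genes stood higher together. Class II promoters are known for a set of conserved boxes, of which the Y box, read as GATTGG on the strand of the gene, binds the factor NF-Y. Of 9 class II genes searched, 8 had an entry among the RefSeq promoters (build GRCm38.p6, 250 bases before to 50 after a start), and each of the 8 held GATTGG on its own strand in at least 1 entry. The windows below are written on the strand of the gene, with GATTGG in capitals.
H2-Aa, chr17:34287837-34287932, minus strand: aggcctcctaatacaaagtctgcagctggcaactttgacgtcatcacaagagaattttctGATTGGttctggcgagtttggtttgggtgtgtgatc
H2-Eb1, chr17:34305747-34305842, plus strand: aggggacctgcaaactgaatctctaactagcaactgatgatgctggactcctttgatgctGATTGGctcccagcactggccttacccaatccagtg
H2-DMb1, chr17:34153069-34153164, plus strand: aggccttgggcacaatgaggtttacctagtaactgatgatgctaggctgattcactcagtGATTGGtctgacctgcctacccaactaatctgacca
H2-Ob, chr17:34238787-34238882, plus strand: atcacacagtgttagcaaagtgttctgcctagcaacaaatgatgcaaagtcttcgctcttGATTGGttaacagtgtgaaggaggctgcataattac
In these windows GATTGG began 49, 60, 62 and 58 bases before the start. Its place varied more over the other genes, from 44 bases in H2-Oa and 91 in H2-DMb2, with H2-Eb2 farther still, to 199 in 1 of the 2 entries of H2-DMa, the other of which held none. Among all 32851 promoters of the table, 16.1% held GATTGG on either strand and 8.71% on the strand of the gene. A match of letters is a description of the sequence and no measure of binding.

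Genes of follicular B cells, the recirculating majority of mature B cells, were also higher. Of 12 compared, 6 were past 2-fold higher in both libraries, against 0.858% of all genes, and 0 lower, with medians of 0.98 and 1.13. Fcer2a had ratios of 1.42 (1.22 to 1.62) and 1.66 (1.41 to 1.90), Cr2 of 1.27 and 1.92, and Stap1, an adaptor of B cell signaling, of 1.67 and 2.02. Ms4a4c (1.20 and 1.57) and Gimap6 (1.01 and 1.21) were also past it, while Klf2, a factor that sustains quiescence and traffic, did not follow, with -0.22 and -0.23.

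Among 15 homing genes, 4 were past 2-fold higher in both libraries, against 0.858% of all genes, and 0 lower. They included Gpr183, the oxysterol receptor that positions B cells at the edge of follicles (1.70 and 1.61), Itgb7, an integrin chain for gut homing (1.86 and 2.06), and Ccr6, a chemokine receptor (1.55 and 2.22). Cxcr4, the receptor that retains cells in marrow, had -0.04 and -0.12, and S1pr1, which guides exit into blood, -0.29 and 0.16. The difference in homing genes was thus held by a part of the list, and the receptors of retention and exit were close between the classes.

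Genes of transitional and early B cells were lower in mature cells. Of 8 transitional genes compared, 4 were past 2-fold lower in both libraries, against 2.5% of all genes, and 0 higher. The medians were -1.02 and -1.19. Sox4, a transcription factor of early lymphocytes, stood at 112 and 81.6 UPM against 455 and 381 (-2.02 and -2.21), and Vpreb3 at 465 and 504 against 1449 and 1591 (-1.64 and -1.66). Cd93 (-1.29 and -1.33) and Myb (-1.51 and -2.18), a factor of proliferating precursors, were the others, and Cd24a had -0.76 and -1.05. Of 12 early B cell genes, which share Sox4, Myb and Cd93 with the transitional list, 7 were lower past 2-fold and 0 higher.

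Receptor and survival genes were mixed. Of 19 B cell receptor genes compared, 15 were lower in mature cells in both libraries. Over all 6411 genes compared, 3119 were lower in both and 1462 higher in both. Past 2-fold, 1 receptor gene was lower, the inhibitory receptor Cd72 (-1.08 and -1.42), and 1 was higher, Cr2. The shares of all genes past 2-fold were 2.5% lower and 0.858% higher. Ighm, the constant region of IgM, had -0.64 on ND and -1.85 on HFD and, without mixed cells, -0.65 and -0.84. The mixed Ighd-low cells of HFD included 4 with plasma cell RNA, up to 4009 UMIs of those genes in 1 cell. Tnfrsf13c, the receptor for the survival factor BAFF, had -0.88 and -0.87. Icosl, the ligand of the T cell costimulator ICOS, was higher by 2.15 and 1.35, and Bcl2a1b, an anti-apoptotic gene, by 1.12 and 2.26. Of 23 transcription factors, 1 was called, Spib, with -1.20 and -1.23, against 2.5% of all genes lower. Mef2c and Ets1 were the 2 that were higher in both libraries, as were 1462 of all 6411 genes.

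Genes chosen for the size of the ratio came from these groups in part. The 10 highest included Plaur, the urokinase receptor (1.74 and 2.34), Stap1, Gpr183, Rasgef1b, an exchange factor of small GTPases (1.58 and 1.60), H2-Aa, Fcer2a, Hspa1a, H2-Eb1 and Dnajb1. Among the 10 lowest were Mgp, Dcn, Igfbp6, Sparc and Gpx3, genes of connective tissue cells. Their ratios rested on mixed cells: without these, Mgp had -0.31 on ND and -0.46 on HFD, Dcn 0.21 and 0.04, Sparc -0.19 and -0.04, Igfbp6 -0.53 and -0.95, and Gpx3 0.25 and -0.42. The other 5 were Slamf9 (-2.19 and -2.32), Atp1b1, a chain of the sodium pump (-2.04 and -2.50), Sox4, Coq7 (-2.11 and -1.86) and Akap12 (-1.79 and -1.86). Without mixed cells the smaller of their ratios in the 2 libraries lay between -2.21 for Slamf9 and -1.78 for Akap12.

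**Figure D2:**
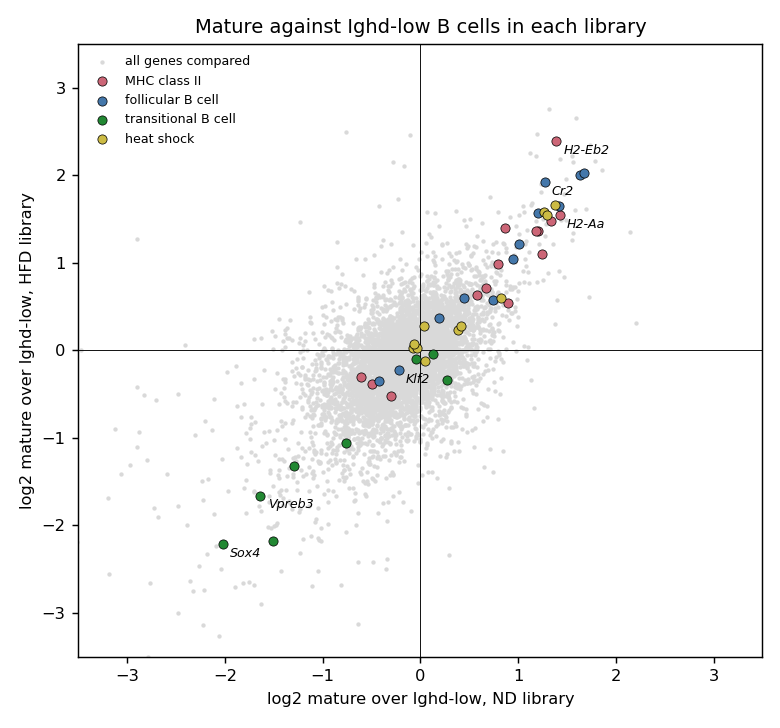
Log2 ratio of mature over Ighd-low B cells in the ND library (horizontal axis) and the HFD library (vertical axis); each point is 1 gene, grey for all genes compared and coloured for 4 gene lists, with 30 genes outside the axes. MHC class II and follicular genes lie mostly up and to the right, with H2-Aa at 1.43 and 1.54, and transitional genes down and to the left, with Sox4 at -2.02 and -2.21.

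Cells just inside and just outside the Ighd limit were compared with no test. Cells with exactly 2 Ighd UMIs numbered 121 on ND and 86 on HFD, and cells with 1 numbered 195 and 162. H2-Aa stood at 4445 and 4256 UPM in the former and at 2940 and 2767 in the latter, and Vpreb3 at 591 and 768 against 1060 and 1268. There was no sharp step at the limit: over cells with 0, 1, 2, 3, 4 to 5 and 6 or more Ighd UMIs, H2-Aa on ND was 1490, 2940, 4445, 5580, 4981 and 5885 UPM, and on HFD 1500, 2767, 4256, 5270, 5482 and 6666.

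Within the chosen cells some genes went on in the same direction. From 2 to 6 or more Ighd UMIs, Ms4a1 went from 1174 to 577 UPM on ND and from 1360 to 714 on HFD, and Sox4 from 171 to 32.6 and from 124 to 57.1. The highest stratum held 18 and 26 cells, and its median depth of 4403 and 4029 UMIs was close to that of the stratum with 2, at 4096 and 3780. Cells with more Ighd RNA thus had lower Ms4a1 in both libraries, while Sox4 was flat on HFD from 3 UMIs on, at 53.2, 64.8 and 57.1 UPM. Other genes had no steady course: Cd74 on ND was 22954, 26144, 24004 and 21267 UPM over the 4 groups, and Fcer2a on HFD 274, 209, 291 and 390.

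**Figure D3:**
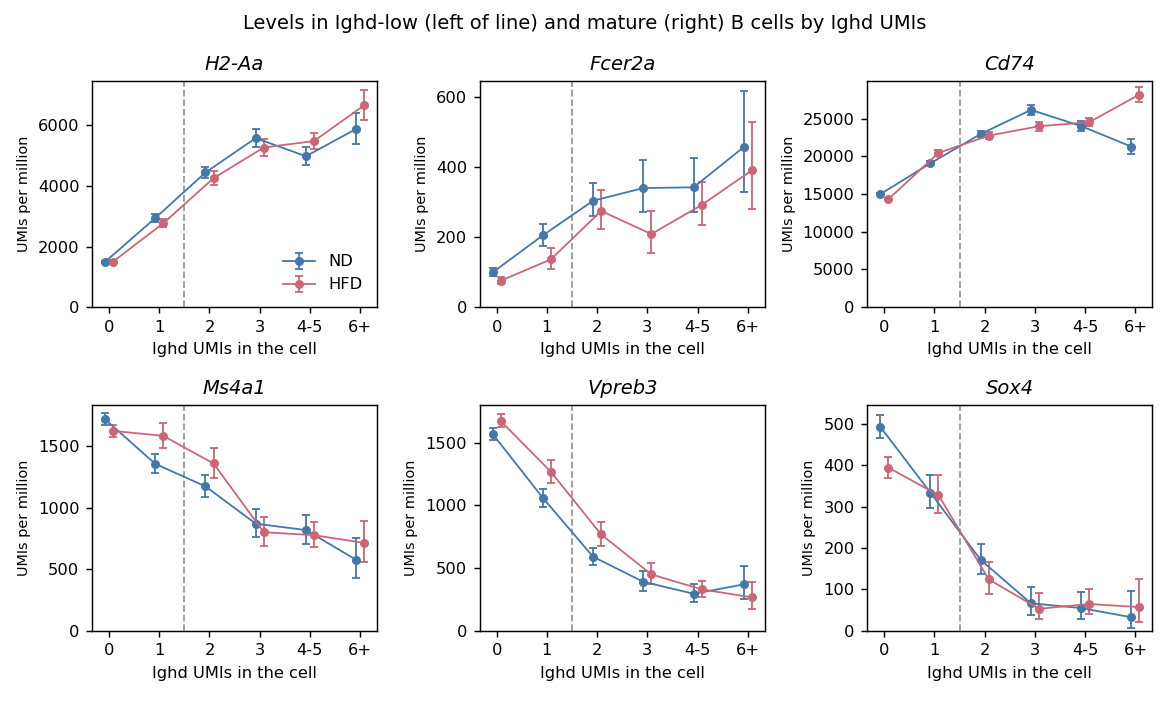
Levels (UPM) of 6 genes in cells grouped by their number of Ighd UMIs, ND in blue and HFD in red, with exact 95% Poisson intervals; the dashed line marks the limit of the rule, with Ighd-low cells on the left. H2-Aa, Fcer2a and Cd74 are higher, and Ms4a1, Vpreb3 and Sox4 lower, in each group of cells right of the line than in those left of it.

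The chosen cells were also described by Fcer2a, found in 145 ND and 127 HFD cells and not in 112 and 113. Cd93 stood at 15.2 and 16.7 UPM in cells with Fcer2a and at 70 and 53.8 without (log2 ratio -2.15, -3.39 to -1.14, and -1.64, -2.97 to -0.54). Vpreb3 differed by -1.28 and -1.46 and Ms4a1 by -1.02 (-1.20 to -0.85) and -0.80 (-0.99 to -0.61). Gpr183 was higher with Fcer2a, by 0.69 (0.27 to 1.14) and 0.66 (0.15 to 1.19). Median depth was 4115 and 4156 UMIs with and 3923 and 3701 without. Cells without an Fcer2a UMI, some of which may have missed it by depth, thus had more Cd93 and Vpreb3 RNA in both libraries. Sox4, also a transitional gene, had -0.52 (-1.05 to 0.0036) on ND and -0.01 (-0.66 to 0.66) on HFD.

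MHC class II RNA varied among the cells. The 14 genes took a median of 3.66% of the UMIs of a cell on ND, with 1.92% at the 10th and 5.78% at the 90th percentile, and of 4.22% on HFD, with 1.42% and 5.64%. In Ighd-low cells the medians were 2.01% and 1.79%. A small number of mature cells, 7 on ND and 13 on HFD, had under 1%, a limit chosen after the values were seen. In these cells Cd93 stood at 207 and 235 UPM against 30.6 and 19.2 in the rest, and Vpreb3 at 849 and 1308 against 448 and 445. Few UMIs stand behind this, 10 and 16 of Cd93.

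Light chain use was read from Igkc, the kappa constant region, and Iglc1, Iglc2 and Iglc3, those of lambda. A B cell as a rule expresses 1 light chain isotype. All 497 cells had at least 3 light chain UMIs. At a limit of 90% of 1 isotype, 42 ND and 58 HFD cells were kappa, 12 and 14 were lambda, and 203 and 168 (79.0% and 70%) held both. Of the assigned cells 22.2% (12 to 35.6%) on ND and 19.4% (11.1 to 30.5%) on HFD were lambda, intervals that overlapped. Over 50% lambda UMIs were held by 20.2% of all ND and 10.8% of all HFD cells, so that the gap between the diets depended on the limit.

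The cells with both isotypes formed a broad range and not a separate group. The median lambda share was 26.4% on ND and 19.8% on HFD, and 52 of 257 and 26 of 240 cells were over 50%. On ND 57 cells lay at 20 to 30% and 25 at 50 to 60%, and on HFD 40 and 8. In kappa cells the mean was 65.0 Igkc and 1.62 Iglc2 UMIs on ND and 53.6 and 1.29 on HFD. In cells with both it was 42.3 Igkc and 10.2 Iglc2 UMIs on ND and 44.6 and 8.58 on HFD, and in lambda cells Igkc was 1.42 and 0.929 against 32.1 and 23.9 Iglc2.

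In T cells, gated as above, Iglc2 stood at 3.97 and 3.28 UPM, found in 2.87% and 2.31% of cells, against 2231 and 1842 UPM and 90.3% and 84.2% in mature B cells, and Igkc at 45.9 and 49.2 UPM against 10041 and 10565. UMIs of variable segments were few. In lambda cells the mean was 1.08 and 0.643 Iglv UMIs, in cells with both isotypes 0.236 and 0.155, and in kappa cells 0.0238 and 0.172. Iglc2 and Iglc3 are near-identical copies, and the split of UMIs between them is uncertain. How the lambda UMIs of these cells arose was not tested.

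**Figure D4:**
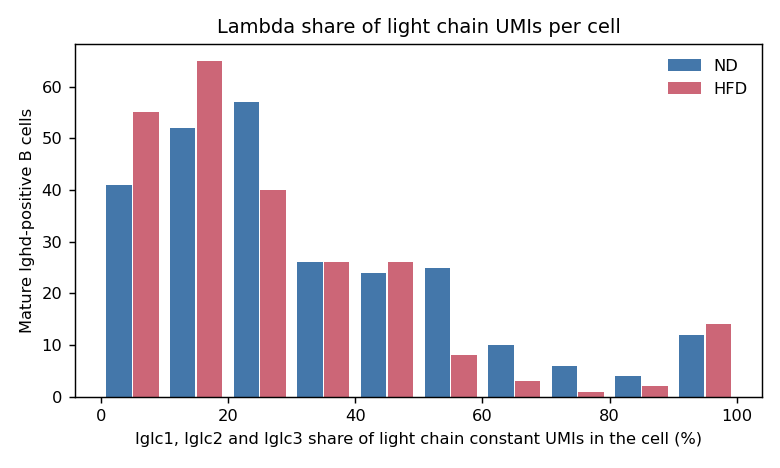
Number of mature Ighd-positive B cells (vertical axis) by the lambda share of light chain constant region UMIs in the cell (horizontal axis, in steps of 10%), ND in blue and HFD in red. Most cells lie under 50%, spread over a broad range, and 12 ND and 14 HFD cells make up the last bar.

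The second comparison set HFD against ND in mature cells. The aim of the study was the link of diabetic nerve damage to diabetic bone disease, with HFD mice as the model. Of 4409 genes with at least 50 UMIs over both libraries, 231 were past 1.5-fold higher on HFD (5.24%) and 200 lower (4.54%). The median ratio of all genes was 0.06, and with it set to 0 the counts were 154 higher and 250 lower, or 38.1% of calls higher in place of 53.6%. With 1 library per diet a called gene is one past the fold, and among genes with at least 200 UMIs the shares were 1.06% higher and 3.39% lower.

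Genes of identity were close between the diets. Of 19 B cell receptor genes 0 were past 1.5-fold in either direction (median -0.04), nor were any of 12 MHC class II genes (0.08) or 12 MHC class I genes (0.13). Over all genes 5.24% were past it higher and 4.54% lower, so that counts of 0 in lists this short lie near the general share. Ighm stood at 2982 UPM on ND and 2949 on HFD, Igkc at 10041 and 10565, and Ms4a1 at 982 and 977. H2-Aa had a log2 ratio of 0.06 and Cd74 of 0.02. The lambda genes Iglc1 (-0.45), Iglc2 (-0.28) and Iglc3 (-0.40) were lower on HFD.

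Follicular genes were close too, apart from Klf2 and Cxcr5, which were past 1.5-fold lower, 2 of 12 compared, against 4.54% of all genes. Klf2 stood at 4632 UPM on ND and 2666 on HFD (-0.80), and Cxcr5, the receptor that draws B cells into follicles, at 88.6 and 57.7 (-0.61). Of 23 transcription factors 3 were lower past the fold, Klf2, Id3, an inhibitor of E proteins (339 and 208 UPM, -0.70), and Bcl11a, needed for early B cell development (140 and 91.6, -0.61), and 0 were higher. Of 11 survival and costimulation genes, 10 had a ratio below 0 (median -0.30) and 2 were past the fold, Icosl (-0.69) and the pro-apoptotic Bcl2l11 (-0.62).

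Early-response genes were lower on HFD as a group. These genes are induced within minutes by receptor signals and by handling of tissue. Of 25 compared, 21 had a ratio below 0 and 10 were past 1.5-fold lower, 0 higher, with a median of -0.39, against 4.54% of all genes lower. Myc, a factor of growth, stood at 191 UPM on ND and 62.7 on HFD (-1.60, -2.04 to -1.20), and was found in 28.8% and 15.0% of cells. Jun, a part of AP-1, stood at 1813 and 800 (-1.18, -1.30 to -1.06), and Nfkbia, the inhibitor of NF-kB, at 952 and 600 (-0.66). Nr4a1, induced by antigen receptor signals, did not follow, at 787 and 819 UPM (0.06), nor did Egr3 (0.43), and Egr1 had -0.70. Fos (-0.78) and Atf3 (-1.38) rested in part on mixed cells, and without them had -0.41 and -0.87.

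Chaperone genes of the heat shock response were lower too. All 11 had a ratio below 0 and 5 were past 1.5-fold lower (median -0.54), against 4.54% of all genes. Hspa1a, an inducible HSP70 gene, stood at 3603 UPM on ND and 1422 on HFD (-1.34, -1.43 to -1.25), found in 41.2% and 21.7% of cells, and Dnajb1, its cochaperone, at 1076 and 484 (-1.15). Hspa1a and Hspa1b (-1.15) are near-identical copies between which reads may be split. Hsp90ab1, the constitutive HSP90, had -0.37. The cells differed widely: the 11 genes took a median of 0.895% of UMIs of a cell on ND and 0.476% on HFD, with 6.19% and 3.5% at the 90th percentile and up to 11.5% and 11.8%.

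Neither group was lower in mature B cells alone. The 11 heat shock genes were each below 0 in the other 3 B lineage classes, in T cells, neutrophils and mesenchymal cells, with medians between -1.05 in neutrophils and -0.26 in mesenchymal cells. Early-response genes had medians of -0.42 in Ighd-low cells, -0.72 in resting and -0.83 in cycling precursors, and -0.25 in T cells. A difference between the libraries in handling and a difference between the diets cannot be told apart here. Against Ighd-low cells of the same library, 3 of 11 heat shock genes had summed levels past 2-fold higher in both libraries and 0 lower. Over all genes 0.858% were past it higher. Hspa1a had log2 ratios of 1.37 on ND and 1.67 on HFD. The median cell did not follow: the list took 1.10% of its UMIs in Ighd-low cells on ND and 0.523% on HFD, above the medians of mature cells. At the 90th percentile the share was 3.33% and 2.31%, below that of mature cells.

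Of 9 interferon-stimulated genes compared, 2 were past 1.5-fold, both higher on HFD, against 5.24% of all genes. The list median of 0.08 lay near that of all genes, 0.06. Ifi27l2a stood at 374 and 587 UPM (0.65, 0.47 to 0.83), and Trim30a at 29.2 and 74.7 (1.34, from 33 and 75 UMIs). Over the whole list the level summed to 1191 and 1492 UPM. Ifi27l2a was the most abundant of the list. The median depended on the setting, at 0.69 among cells with at least 3 Ighd UMIs and 0.22 with equal weight for each cell.

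**Figure D5:**
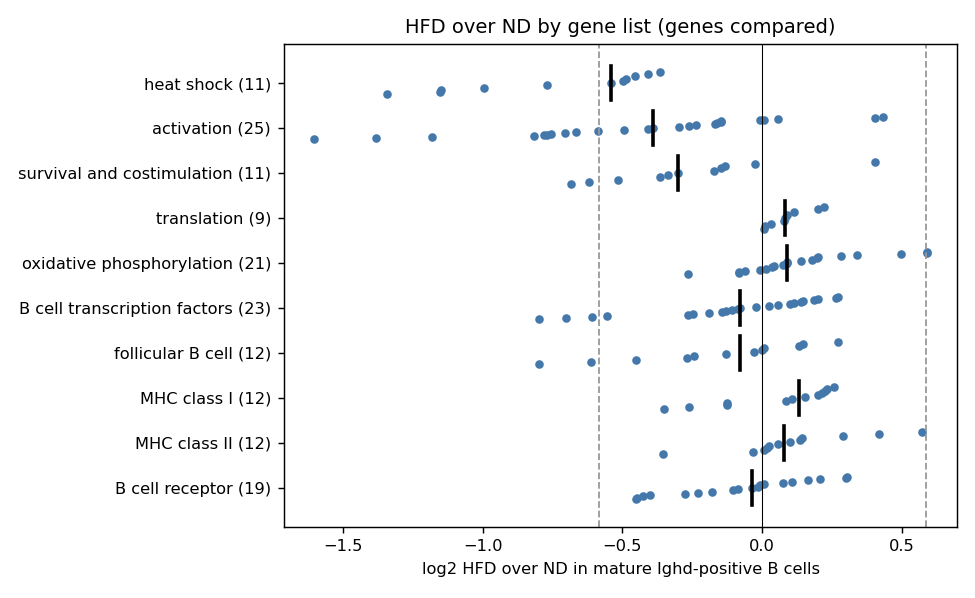
Log2 ratio of HFD over ND in mature Ighd-positive B cells (horizontal axis) for the genes of 10 lists, with the number of genes compared in brackets; each point is 1 gene, black bars are medians and dashed lines mark 1.5-fold. Receptor and MHC genes lie around 0, while all 11 heat shock genes and 21 of 25 activation (early-response) genes lie to the left of it.

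The 10 genes lowest on HFD by the size of the ratio were Ccl21a, Igha, Lyz2, Myc, E330020D12Rik, Atf3, Hspb1, Hspa1a, Jun and Dnajb1. Igha (1987 UMIs on ND, 26 on HFD) and Lyz2 (870 and 84) had log2 ratios of -6.06 and -3.20, and of 0.12 and -0.03 without mixed cells. For Ccl21a, 1 cell supplied 99.6% of 481 ND UMIs, and HFD had 0. E330020D12Rik, a gene without an assigned role, had -1.55 (-1.95 to -1.17), and Hspb1, a small chaperone, -1.34. The calls of Ccl21a, Igha and Lyz2 thus rested on mixed cells, and those of Myc, Hspa1a, Jun and Dnajb1 were as large without mixed cells, at -1.70, -1.30, -1.20 and -1.21.

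The 10 highest on HFD were Col1a1, Fabp4, Gm47283, Hbb-bs, Camp, Nsd1, Ifi27l2a, Crem, S100a11 and Cox14. Col1a1, the chain of type I collagen, had 7 UMIs on ND and 287 on HFD (5.43), and 1.25 without mixed cells. For Fabp4, a fatty acid binding protein of fat and vessel cells, 1 cell supplied 67.7% of the 195 HFD UMIs, and its ratio was 4.87 and without mixed cells 4.52. The 9 mesenchymal genes listed summed to 59.4 UPM on ND and 844 on HFD, mixed cells included. The 5 compared, Col1a1 among them, had a median of 4.18 and, without mixed cells, of 1.34. These 5 reached the minimum count only through HFD, so that their direction is fixed by the filter. Dcn, the decorin gene, found in 9.73% and 20.0% of mature cells, was found in 10.2% and 16.8% of T cells. Hbb-bs, a globin gene (89.5 and 152 UPM, 0.76), and Camp, a neutrophil granule gene (106 and 172, 0.69), belong to red cells and neutrophils, and Hbb-bs was in 29.6% and 46.2% of mature cells and in 35.2% and 42.2% of T cells. The other genes were between 0.60 for Cox14, an assembly factor of cytochrome oxidase, and 0.85 for Gm47283, a predicted gene.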

How the data were processed

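Periosteal cells were profiled by droplet-based single-cell RNA sequencing (1 library per diet, 2 in all). The authors deposited raw UMI counts of 32285 genes per barcode, made with Cell Ranger 6.0.1 on mm10 per the submitters' processing notes and not normalized. The matrices were read with Python 3.11.15, numpy 2.4.6, scipy 1.17.1 and pandas 2.3.3. Levels are summed UMIs of a class over its total, and ratios add 0.5 to both counts. Intervals were exact (Poisson, Clopper-Pearson, conditional binomial for ratios, 95%), and a count of 0 was taken to allow 3. No test between diets was possible. Genes of the rule were left out of the comparisons.

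The members and the 31 gene lists were chosen with earlier results of these data known. Named genes are those of the lists and the 10 highest and 10 lowest ratios among genes with at least 200 UMIs (between classes, by the smaller ratio of the 2 libraries). T cells had at least 3 UMIs of Cd3d, Cd3e, Cd3g and Trac and none of Cd79a or Cd79b. Doublets were not removed: Scrublet (scanpy 1.11.5) marked 100 ND and 23 HFD cells, the latter 0.370% of kept cells, too few to be used, and cells with RNA of another type were left out as an alternative instead. The ratios were tried on simulated data with known folds, which held counting error alone and no spread between cells or mice. Alternatives were the Ighd and S100 limits, the mitochondrial limit, thinning, scaling, minimum counts, the added count, the fold and the light chain limits. Some genes of the lists are not reported here.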

Additional observations from a re-analysis of the deposited data

Results flagged for a closer look

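In 6 genes the ratio of mature over Ighd-low cells was past 2-fold in opposite directions in the 2 libraries; the difference between diets was not tested. Without cells with RNA of another type, none of the 6 was past 2-fold in opposite directions. Igha had a log2 ratio of 6.71 on ND and -4.37 on HFD, and Jchain of 3.02 and -8.07. A single cell supplied 98.7% of Igha UMIs of ND mature cells and a single cell 95.4% of those of HFD Ighd-low cells, and without such mixed cells the ratios were 0.55 and -0.08 for Igha and -1.19 and -0.23 for Jchain. Tagln (-5.32 and 2.49) and Acta2 (-4.19 and 1.15), genes of contractile cells, had 82.6% and 69.7% of their HFD mature UMIs from 1 cell, and without mixed cells had -4.47 and 0.15, and -3.41 and -0.16. Fabp4 had -2.90 and 1.27, and -0.99 and 0.84 without mixed cells, with 69.9% of its ND Ighd-low and 67.7% of its HFD mature UMIs from 1 cell each. Ccl5, a chemokine of T and NK cells, had -1.23 and 1.47, with 90.8% of 130 HFD mature UMIs from 1 cell, and -0.69 and 1.59 without mixed cells, which did not take in cells with NK cell RNA.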

How the results depend on the processing

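No paired analysis was possible because each diet was 1 pooled library, and no replicate could be left out. No values were taken without doublets called by Scrublet, which marked too few HFD cells. Of 70 summary values under the alternatives, 54 moved by less than counting error or 1.5 times and 16 by more. The share of kept cells that were mature was 7.5% on ND and 6.46% on HFD with at least 1 Ighd UMI, 2.26% and 2.47% with at least 3, and 0.352% and 0.454% after thinning to 1000 UMIs, so that its order between the diets turned. Genes past 1.5-fold higher on HFD were 3.49% with the median set to 0, 9.38% at a minimum of 20 UMIs, 1.06% at 200 and 0.998% at 2-fold. Genes lower were 7.76% at 20 UMIs and 0.907% at 2-fold. Against Ighd-low cells, 0.827% were 2-fold lower with at least 1 Ighd UMI, and 2.39% were higher and 7.57% lower at 1.5-fold. Counting cells with over 50% of 1 isotype, 20.6% of assigned cells on ND and 10.9% on HFD were lambda.

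Among list medians, 1 of 226 between diets and 7 of 400 between classes turned sign from a size of at least 0.1, and 16 and 131 more moved by at least 0.1. The 1 between diets was that of plasma cell genes (0.0096 with at least 1 Ighd UMI). On HFD these were interferon genes (0.0096 with at least 1 Ighd UMI), glucocorticoid response (0.0656 without mixed cells) and oxidative phosphorylation (0.00201 with the median set to 0). On ND these were survival genes (-0.405 thinned and -0.489 at 200 UMIs), lipid handling (0.357 thinned) and glucocorticoid response (0.0425 with equal weight for each cell). Of these alternatives, leaving out mixed cells, equal weights and the 50% isotype limit were chosen after seeing the data. The causes were not tested. Depth limits genes with few UMIs, and spread between mice is unknown.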

Other observations

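Further gene groups of mature cells were compared between the diets. Over all 4409 genes, 2593 had a ratio of HFD over ND above 0, with a median of 0.06, and 5.24% were past 1.5-fold higher and 4.54% lower. Of 21 genes of oxidative phosphorylation, 16 had a ratio above 0 (median 0.09, and 0.03 with the median of all genes set to 0) and 2 were past 1.5-fold higher, Ndufa1 (125 and 188 UPM) and Uqcrb (128 and 192 UPM), both subunits of the respiratory chain with a log2 ratio of 0.59. All 9 translation genes were above 0 and none past the fold, with a median of 0.08, near that of all genes, and of 0.02 with the latter set to 0. Of 15 homing genes, 2 were higher past the fold, the integrin chains Itgb1 (0.99, from 23 and 41 UMIs) and Itgb2 (0.64). Without mixed cells these had 0.61 and 0.85, and Itgb1 reached the minimum count only through HFD. The 2 lower past the fold were Cxcr5 and Cnr2, a cannabinoid receptor of B cells (-0.65). S1pr1 stood at 284 and 353 UPM (0.32) and Gpr183 at 188 and 141 (-0.41).

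Of 8 transitional genes, 7 were below 0 and Myb (-0.67, from 36 and 20 UMIs) was past the fold, while Vpreb3 had 0.11. Myb reached the minimum count only through ND. Of 11 lipid handling genes compared, Fabp4 (7 and 195 UMIs) and the fatty acid receptor Cd36 (19 and 36) reached the minimum count only through HFD. Cd36 was past the fold higher (1.07, with 55.6% of HFD UMIs from 1 cell), a direction fixed by the filter. Scd1, the desaturase that makes monounsaturated fatty acids, had 397 and 467 UPM (0.23). Of 6 glucocorticoid response genes, Ddit4 (-1.39, from 63 and 21 UMIs) and Dusp1 (-0.76) were lower past the fold and Klf9 higher (0.62, from 24 and 33). Ddit4 reached the minimum count only through ND and Klf9 only through HFD. Tsc22d3, which encodes GILZ, had -0.24. Of 5 erythroid genes 3 were higher past the fold, and the Hba-a1 and Hba-a2 copies (1.24 and 0.62) may share reads.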
